A study of Homo sapiens with 4 samples.

Results

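Human embryonic stem cells kept for 24 h in E8 medium with 10 µM Y27632 were compared with cells of the same culture system kept for 24 h in plain E8. E8 is a chemically defined medium that keeps these cells pluripotent, and Y27632 is a small molecule that inhibits the kinases ROCK1 and ROCK2. Both cultures grew on matrigel-coated plates, and each condition was measured on 1 Illumina BeadChip array. The same set holds 2 further arrays, of cells given 10 mM nicotinamide for 24 h (Nam) and of cells given BMP4 for 6 days (Mesoderm). The BMP4 dose is not given in the sources used here. The labels name H9 as the cell line in one field and H1 in another, so the line is left unnamed. A gene was compared when the E8 array, the Y27632 array or both detected its probe (detection p of 0.01 or less), which held for 11001 genes of the 12083 detected on any of the 4 arrays. Of these, 10164 were detected on both arrays, 684 on E8 only and 153 on Y27632 only.

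With 1 array per condition there is no replicate, so no test was run, and an effect of Y27632 cannot be told apart from differences between cultures, extractions or array runs. Levels are log2 normalized intensities, and each difference is the Y27632 value minus the E8 value on that scale. The description rests on 2 subsets. A gene was called bright when it was detected on both arrays with a mean level of at least 8, which held for 6373 genes. A gene had agreeing probes when 2 or more of its probes, detected on both arrays, differed in the same direction with a between-probe SD of at most 0.2. There were 1075 such genes, 1011 of them with a mean level of at least 7. The between-probe SD measures technical spread within the array pair and covers no difference between cultures.

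The mean signal was 620.5 on E8 and 564.7 on Y27632, with 17779 and 16509 probes detected, so fewer probes passed detection on Y27632. Both arrays carried the pluripotency genes. All 31 core and primed pluripotency genes with a probe were detected on E8 and 30 on Y27632, with summed linear levels of 112800 and 113310. Their median linear level was 2090 on E8 and 1865 on Y27632. POU5F1, the OCT4 gene, stood at 12.08 on both arrays, against 11.94 on Nam and 9.77 on Mesoderm. NANOG, its partner in the pluripotency network, stood at 10.53 on both, with its second probe at 10.11 on E8 and 10.08 on Y27632. SOX2 was at 12.27 on E8 and 12.13 on Y27632, and its second probe was at 10.40 and 9.90. Markers of mesoderm, endoderm, trophoblast and amnion were mostly undetected on both arrays, while most neuroectoderm and eye field markers were detected. Of 18 mesoderm and primitive streak genes, 3 were detected on E8 and 2 on Y27632, against 15 on Mesoderm. Of 11 endoderm genes 1 and 2 were detected, of 16 trophoblast and amnion genes 3 and 3, and of 16 neuroectoderm and eye field genes 9 and 9. TBXT, SOX17, FOXA2, CDX2 and, from the neuroectoderm list, SOX1 were not detected on either array. A PAX6 probe was detected on E8 only (5.61 there) and another on Y27632 only (5.84 there).

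ROCK1 and ROCK2 phosphorylate the myosin light chain and inhibit its phosphatase, so that myosin pulls on actin filaments, and they stabilise filaments through the LIM kinases and cofilin. In human pluripotent stem cells separated from their neighbours, excess pull of this kind leads to blebbing and death, and Y27632 is widely added at passaging for that reason. Actin assembly also reaches the nucleus by 2 routes: it frees the cofactors of serum response factor (SRF), which binds the CArG box, and it lets YAP and TAZ enter the nucleus and bind TEAD factors at GGAATG elements. Genes of contractile actin, such as TAGLN, are classical SRF targets, and CCN1 and CCN2 are classical YAP targets.

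The start regions of 5 genes are shown because they hold one of these elements: CCN2 and PTPN14 from the YAP list, ACTG1 and ACTG2 from the SRF list, and TPM4 from the list of actins and tropomyosins. Each window runs from 250 bases before to 50 after the annotated start on build GRCh38.p14 (RefSeq), on the strand of the gene, and capitals mark the element. CCN2 (chr6:131951323-131951622, minus strand) holds GGAATG 3 times, and PTPN14 (chr1:214551553-214551852, minus strand) holds the reverse complement CATTCC 1 time. TPM4 (chr19:16067288-16067587, plus strand) and ACTG1 (chr17:81512750-81513049, minus strand) hold 1 CArG box each, and ACTG2 (chr2:73892758-73893057, plus strand) holds 2.
CCN2: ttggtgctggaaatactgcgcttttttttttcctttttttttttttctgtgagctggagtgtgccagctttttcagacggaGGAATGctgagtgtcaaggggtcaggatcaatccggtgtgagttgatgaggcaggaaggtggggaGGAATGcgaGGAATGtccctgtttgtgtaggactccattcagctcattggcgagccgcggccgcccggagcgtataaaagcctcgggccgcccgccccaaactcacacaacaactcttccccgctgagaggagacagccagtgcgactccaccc
PTPN14: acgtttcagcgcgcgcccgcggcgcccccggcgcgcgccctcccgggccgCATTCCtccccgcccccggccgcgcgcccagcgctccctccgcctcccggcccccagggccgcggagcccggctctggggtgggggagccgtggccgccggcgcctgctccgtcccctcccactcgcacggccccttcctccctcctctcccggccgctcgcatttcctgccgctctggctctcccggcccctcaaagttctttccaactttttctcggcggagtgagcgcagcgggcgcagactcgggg
TPM4: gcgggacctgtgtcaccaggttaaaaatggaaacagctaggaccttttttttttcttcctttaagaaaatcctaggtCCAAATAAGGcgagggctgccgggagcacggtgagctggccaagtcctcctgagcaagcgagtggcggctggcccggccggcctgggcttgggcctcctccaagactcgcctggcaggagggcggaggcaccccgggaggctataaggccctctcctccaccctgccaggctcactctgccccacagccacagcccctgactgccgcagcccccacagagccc
ACTG1: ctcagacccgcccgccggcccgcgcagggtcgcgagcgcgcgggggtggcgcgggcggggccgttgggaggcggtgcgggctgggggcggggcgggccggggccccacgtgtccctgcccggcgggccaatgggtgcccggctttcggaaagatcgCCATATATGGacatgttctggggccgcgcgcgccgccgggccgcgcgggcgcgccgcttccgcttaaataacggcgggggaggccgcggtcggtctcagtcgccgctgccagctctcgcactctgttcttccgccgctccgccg
ACTG2: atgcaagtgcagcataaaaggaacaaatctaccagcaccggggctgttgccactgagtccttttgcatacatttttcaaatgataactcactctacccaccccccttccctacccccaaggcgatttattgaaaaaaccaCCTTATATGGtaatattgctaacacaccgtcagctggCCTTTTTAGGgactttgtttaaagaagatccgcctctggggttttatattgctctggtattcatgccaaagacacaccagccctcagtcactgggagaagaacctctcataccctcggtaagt
Searched on both strands, the CArG box was present in 454 of 35116 windows of this length (1.29%). By gene, it was present in 1.6% of the 27305 genes with a window and in 13 of the 30 SRF-list genes with one (43.3%). GGAATG or CATTCC was present in 4928 windows (14%). By gene, it was present in 16.7% of all genes, in 11 of the 21 YAP-list genes (52.4%) and in 11 of the 30 SRF-list genes (36.7%). Neither motif contains the other. A match describes the letters and does not show that a factor binds there.

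Differences between Y27632 and E8 were small. Over the 11001 genes the median difference was 0.01 and the SD of the differences was 0.24, and over the 6373 bright genes they were 0.02 and 0.15. For bright genes, the 5th and 95th percentiles were -0.24 and 0.24. Beside this, the SD between probes of one gene, pooled over the 1168 genes with 2 or more bright probes, was 0.14. The spread of single genes over the bright range is therefore about that between probes of one gene. The SD of the difference depended on the level: 0.47 for genes with a mean level from 5 to 6, 0.31 from 6 to 7, 0.21 from 7 to 8, and 0.14 from 10 to 12.

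At 1.5-fold or more, 178 of the 11001 genes (1.62%) were higher on Y27632 and 227 (2.06%) were lower. At 2-fold or more, 27 (0.245%) were higher and 21 (0.191%) lower. Most of these genes were dim: 102 of the 178 and 149 of the 227 were detected on 1 array, and the median level of the 178 was 5.80 and of the 227 was 5.78. Only 2 of the 178 were bright (0.0314% of bright genes), namely B4GAT1 and RSRP1, against 21 of the 227 (0.33%). At 1.3-fold or more, 41 bright genes (0.643%) were higher and 103 (1.62%) lower, a split of 28.5% higher. That split depends on the scaling. With the arrays scaled to their medians, 13 bright genes were higher and 259 lower (4.78% higher), and the median of all genes moved to -0.10. More bright genes were lower than higher under both scalings.

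**Figure D1:**
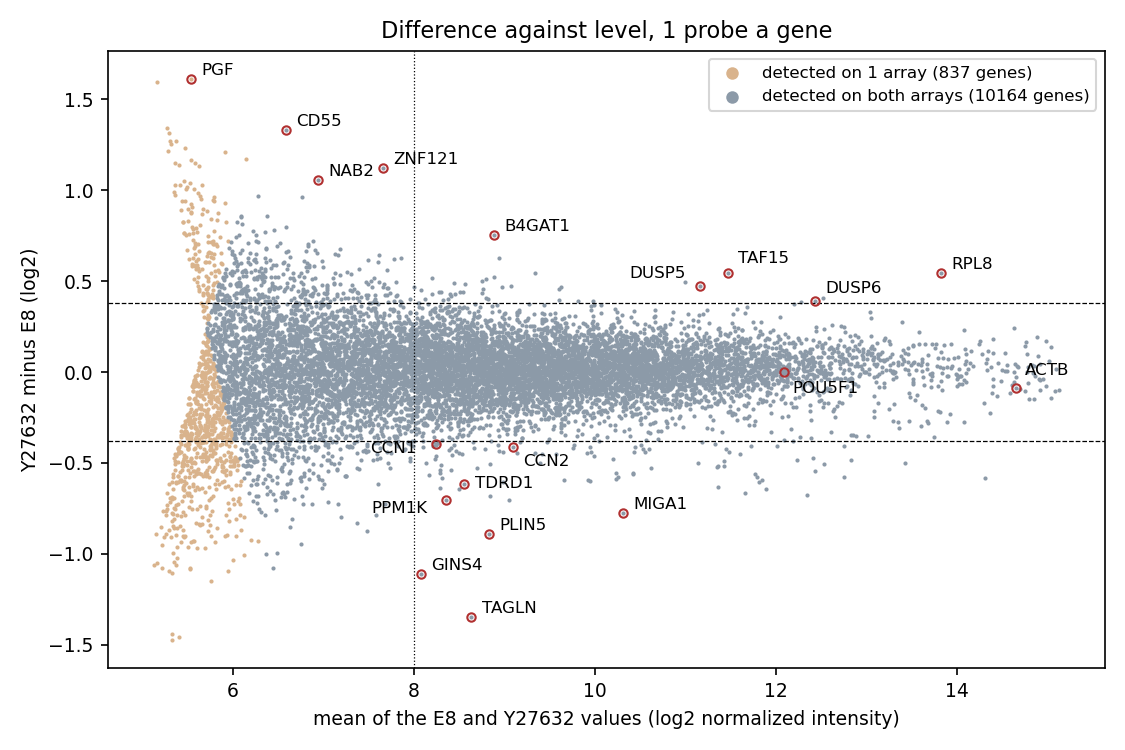
Difference of each of the 11001 genes (Y27632 minus E8, log2) against its mean level on the 2 arrays (log2 normalized intensity); each dot is the brightest probe of 1 gene, coloured by whether 1 or both arrays detected it, dashed lines mark 1.3-fold and the dotted line the level of 8 used for bright genes. The spread is widest below a level of 6 and narrows to an SD of 0.14 between 10 and 12, with TAGLN and GINS4 the only bright genes past 2-fold.

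TAGLN was the bright gene with the largest difference. It encodes transgelin, an actin-binding protein abundant in smooth muscle and a marker of contractile actin. Its brightest probe read 9.30 on E8, 7.96 on Y27632, 7.67 on Nam and 12.51 on Mesoderm, from signals of 839.8, 352.2, 294.7 and 6091. The Y27632 array was thus below E8 and close to Nam, and Mesoderm was far above all of them. The Y27632 value was 2.55-fold below E8 (-1.35), and it lay between -1.48 and -1.03 over the alternative settings. A second probe read 6.63 on E8 and 5.13 on Y27632, where it was not detected, and another was detected on no array. In such bulk RNA, fewer TAGLN-expressing cells and less TAGLN RNA per cell cannot be told apart. Over the list of 20 fibroblast, smooth muscle and endothelial markers, 9 were detected on E8 and 8 on Y27632, with summed linear levels of 5713 and 5883, against 4611 on Nam and 14328 on Mesoderm. THY1, which is also in the pluripotency list, makes up most of the sums on E8 and Y27632. Without it they were 2365 on E8 and 1971 on Y27632, and without TAGLN too 1733 and 1722, both chosen after the data were seen. The part of these markers in the TAGLN difference was not tested. The defining smooth muscle genes MYH11, DES, CNN1 and ACTA2 and the endothelial genes CDH5 and PECAM1 were not detected on E8 or on Y27632. The collagen gene COL1A2, from the same list, was bright, with 9.73 on E8 and 9.65 on Y27632. COL1A1, named after its values were seen, was also detected on both arrays.

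The contractile genes ACTG2, MYL9, ACTC1, ACTA1 and SMTN were dim, and their values did not all lie on one side. ACTG2, smooth muscle gamma actin, read 5.81 on E8 and 4.96 on Y27632, where it was not detected, and its E8 value is itself under the lowest value detected on Y27632 (5.82), so no fold is given. MYL9, a regulatory light chain of smooth muscle and non-muscle myosin, read 6.12 on E8 and 5.52 on Y27632, where it was not detected. It was at least 1.23-fold lower with the main settings, and lay between -0.74 and -0.19 over the alternative settings. ACTC1, the cardiac muscle actin, read 6.01 on E8 and was not detected on Y27632. It was at least 1.14-fold lower with the main settings, and lay between -0.48 and -0.11 over the alternative settings. ACTA1, the skeletal muscle actin, was detected on both and differed by -0.35. SMTN, which encodes smoothelin of contractile smooth muscle, was higher on Y27632 (6.49 on E8, 6.87 on Y27632, 0.37), with its 2 other probes at 0.28 and 0.42 but detected on neither array. ACTG2, ACTC1, ACTA1 and SMTN were named after their values were seen.

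Among the tropomyosins, which coil along actin filaments and set which myosins and binding proteins reach them, TPM1 and TPM4 were lower on Y27632. TPM1 had 4 probes, reading 11.57, 11.47, 7.47 and 7.45 on E8 and 11.24, 11.19, 6.74 and 7.09 on Y27632. All of these probes were lower, with a mean of -0.42 and an SD just above the agreement limit. TPM4 read 10.17 on E8 and 9.74 on Y27632 (-0.44), and its other probe 9.69 and 9.50. TPM2 differed by -0.15. Of the 28 bright members of the list of actins, tropomyosins and actin-binding proteins, 2 were at least 1.3-fold lower (TAGLN and TPM4), against 1.62% of all bright genes, and 0 higher, with a list median of 0.03 against 0.02 for all bright genes. ACTB, the cytoplasmic beta actin, differed by -0.09, -0.08 and -0.16 on its 3 probes, a direction that flips to 0.13 with median scaling. ACTG1, whose start region is shown above, differed by 0.17 on one probe and 0.05 on the other.

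The target kinases and the 8 bright myosin genes showed no difference of 1.3-fold by their brightest probes. ROCK1 read 7.75 on E8 and 7.72 on Y27632, with its second probe at 7.48 and 7.30. ROCK2 read 14.77 on both, but its second probe read 8.43 and 7.98, past 1.3-fold at -0.45. An inhibitor acts on the kinase protein, so these transcripts do not check whether it worked. The 8 bright myosin genes had a median of 0.09 with 0 past 1.3-fold, MYH9 differing by 0.07, MYH10 by 0.12, MYL12A by 0.16 and MYO6 by 0.14. MYO6 turned to -0.01 with median scaling and MYH9 to -0.04 by the mean over its probes. PPP1R12B, a targeting subunit of myosin phosphatase, read 8.29 on E8 and 8.73 on Y27632 (0.44), past 1.3-fold.

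For the target lists of the 2 actin routes, the median depended on whether bright or all compared members were counted. Among the 14 bright SRF targets, 2 were at least 1.3-fold lower (TAGLN and CCN1), against 1.62% of all bright genes, 0 were higher, against 0.643%, 8 lay below 0, and the median was -0.06. Over all 25 compared SRF targets, which include genes detected on 1 array only such as ACTG2, the median was -0.15. For SRF targets detected on both arrays it was -0.054. TPM1, another member, is described above. SRF itself, named after its value was seen, read 10.41 on both arrays. In the list of YAP and TEAD targets only 5 members were bright, among them YAP1 itself, which is not a target. Their median was -0.35, against 0.02 for all bright genes. At least 1.3-fold lower were 2 of them (CCN1 and CCN2), against 1.62% of all bright genes, and 0 were higher, against 0.643%. CCN1 is in both lists, so the counts of the 2 routes are not independent. The median of all 19 compared members was 0.01 and turned to -0.11 with median scaling.

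CCN1 and CCN2 encode secreted matricellular proteins. CCN2 read 9.30 on E8, 8.88 on Y27632, 9.57 on Nam and 12.74 on Mesoderm, and its second probe read 8.13, 7.71, 7.99 and 11.45. Y27632 was the lowest of the 4 arrays on both probes, and the 2 probes differed from E8 by the same amount (mean -0.41, SD 0.00). CCN1 read 8.45 on E8, 8.05 on Y27632, 8.69 on Nam and 12.14 on Mesoderm (-0.40), again lowest on Y27632. PTPN14, a phosphatase that restrains YAP, read 9.12 on E8 and 8.77 on Y27632 (-0.35). YAP1 differed by 0.05 and ASAP1, also named after its values were seen, by 0.01. Over the alternative settings CCN2 lay between -0.53 and -0.34 and CCN1 between -0.55 and -0.29.

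Adhesion genes were mostly within 1.3-fold. TLN1, which encodes talin and links integrins to actin, read 7.99 on E8 and 8.42 on Y27632 (0.43). It was the single one of 19 bright focal adhesion adaptors past 1.3-fold, against 0.643% of all bright genes higher and 1.62% lower. ZYX differed by 0.17, ILK by 0.32 (but -0.00 by the mean over its probes), VASP by -0.28 and VCL by -0.17, the last named after its value was seen. Of 19 bright integrin, laminin and matrix genes 0 passed, with COL6A1 at -0.37 and COL4A2 at 0.27. Of 19 bright junction and keratin genes, only CLDN7 passed, at -0.46, against 1.62% of all bright genes lower. CLDN7, a claudin of epithelial tight junctions, read 10.21 on E8, 9.75 on Y27632, 9.83 on Nam and 9.20 on Mesoderm. CTNNB1, which encodes beta-catenin, read 9.84 on E8 and 9.49 on Y27632, but its second detected bright probe read 9.69 and 9.60.

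**Figure D2:**
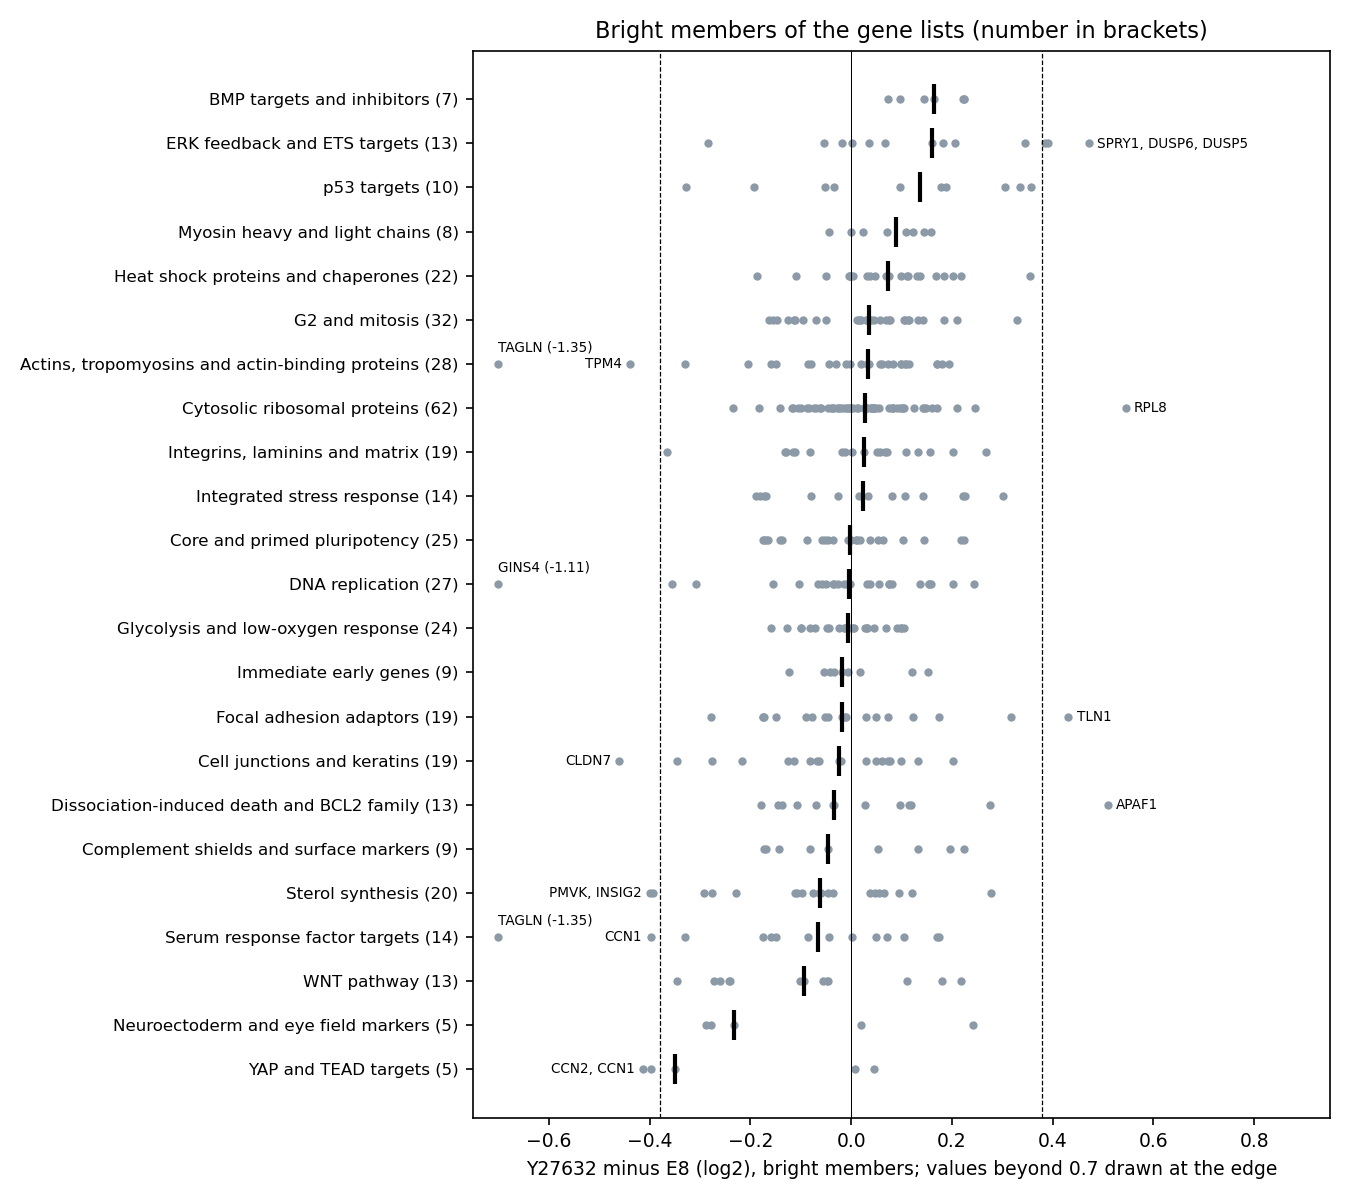
Differences (Y27632 minus E8, log2) of the bright members of the gene lists drawn, each with at least 5 of them; each dot is 1 gene, the black bar the list's median, dashed lines 1.3-fold, and values beyond 0.7 are drawn at the edge with their value. Medians run from -0.35 for the 5 genes of the YAP and TEAD list to 0.17 for the 7 BMP targets and inhibitors. The named genes are those past 1.3-fold.

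The list of ERK feedback genes held the most bright members at least 1.3-fold higher on Y27632, against 0.643% of all bright genes. ERK is the kinase at the end of the FGF pathway that sustains primed pluripotency, and cells answer its activity by making inhibitors of it. Of 13 bright members, 3 were at least 1.3-fold higher, 0 were lower, 10 lay above 0 and the median was 0.16. DUSP5, a nuclear ERK phosphatase, read 10.93 on E8, 11.40 on Y27632, 10.67 on Nam and 11.39 on Mesoderm (0.47). DUSP6, a cytoplasmic ERK phosphatase, read 12.23, 12.63, 12.61 and 13.49 in that order, with its second probe at 8.82, 9.08, 9.01 and 10.69. Both probes were higher on Y27632 than on E8, by 0.39 and 0.25. SPRY1, a Sprouty inhibitor of receptor signalling, read 12.08 on E8 and 12.47 on Y27632, and its second detected probe 11.74 and 11.92. SPRY2, named after its values were seen, with 11.39 and 11.73, was just under 1.3-fold, and PHLDA1 was the largest difference in the other direction (-0.28). The median over all 15 compared members was 0.07, and with median scaling it was 0.02.

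The other signalling and stress lists held few genes past 1.3-fold. All 7 bright BMP targets and inhibitors lay above 0, though ID1 (0.07, named after its value was seen) turned to -0.04 with median scaling. Their median was 0.17, against 0.02 for all bright genes, with BAMBI, BMP7 and ID3 at 0.22 each. Of all 12 compared members of that list, 1 was at least 1.5-fold lower, against 2.06% of all genes, and 0 higher, against 1.62%. The 10 bright p53 targets had a median of 0.14 with 0 past 1.3-fold, GADD45A differing by 0.36, AEN by 0.34 and ZMAT3 by -0.33. With median scaling the medians over all compared members of these lists were 0.04 and 0.02. Of 13 bright genes of dissociation-induced death and the BCL2 family, only APAF1 passed, against 0.643% of all bright genes higher. APAF1, the core of the apoptosome, read 8.54 on E8 and 9.05 on Y27632 (0.51). The 13 bright WNT pathway genes had a median of -0.09 and 0 past 1.3-fold. Of 20 bright sterol synthesis genes, PMVK (-0.40) and INSIG2 (-0.39) were lower, against 1.62% of all bright genes, and 0 were higher, against 0.643%. By their brightest probes, the 24 bright glycolysis and low-oxygen genes, 32 bright genes of G2 and mitosis, and 25 bright pluripotency genes had 0 past 1.3-fold. Their medians were -0.01, 0.04 and -0.00. The second probe of SOX2 was past 1.3-fold, at -0.51. Of all 31 compared pluripotency genes, 1 was at least 1.5-fold lower, against 2.06% of all genes, and 0 higher, against 1.62%. Of 62 bright ribosomal protein genes, only RPL8 passed (higher, against 0.643%), and of 27 bright DNA replication genes only GINS4 (lower, against 1.62%).

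GINS4, a subunit of the replicative helicase complex, read 8.63 on E8, 7.52 on Y27632, 6.76 on Nam and 6.01 on Mesoderm, a difference of -1.11 from a single probe. Y27632 lay between E8 and the other arrays. PLIN5, a coat protein of lipid droplets, read 9.27, 8.38, 7.98 and 8.21 in the same order (-0.89). MIGA1, a protein of mitochondrial fusion, read 10.69, 9.91, 9.75 and 9.36 (-0.78). In each of these genes E8 was the highest of the 4 arrays. The same held for 11 of the 12 bright genes furthest below E8, so Nam and Mesoderm were below E8 there too. Of the 12 furthest above E8, E8 was the lowest array for 4. PTGR2, a prostaglandin reductase, differed by -0.68, BMS1P1, a pseudogene, by -0.68, DUSP19, a phosphatase, by -0.66, and USP22, the deubiquitinase of the SAGA complex, by -0.64. The zinc finger genes ZNF69 and ZNF557 and the rhomboid protease gene RHBDL2 were lower by their brightest probe and within 1.3-fold by their other one. For RHBDL2 the values were -0.71 and 0.13, for ZNF69 -0.64 and 0.06, and for ZNF557 -0.64 and -0.04. Comparisons of Nam and Mesoderm with E8 would share this E8 array, so the levels are given side by side and no overlap of the comparisons is counted.

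On the higher side, B4GAT1, a glucuronyltransferase that helps build the sugar chain of dystroglycan, read 8.50 on E8, 9.26 on Y27632, 8.82 on Nam and 9.54 on Mesoderm (0.75). Its other probe went the opposite way, with 8.96 on E8 and 8.73 on Y27632. RSRP1 read 8.63 on E8 and 9.26 on Y27632 (0.63), with 7.88 and 8.01 on its other probe. RPL8, a protein of the large ribosomal subunit, read 13.55 and 14.10 (0.55), and its other probe 7.33 and 7.12. TAF15, an RNA-binding protein, was higher by both probes: 11.20 on E8, 11.74 on Y27632, 11.86 on Nam and 11.14 on Mesoderm by one, and 8.53, 9.02, 9.17 and 8.47 by the other. The mean over its probes was 0.52 with an SD of 0.04. SF3B3, a splicing factor subunit, differed by 0.54, SHISA2 by 0.53, ANKZF1, which acts in ribosome quality control, by 0.52, USP38 by 0.50, and MT1E, a metallothionein, ZNF317 and PPFIBP2 by 0.49 each.

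**Figure D3:**
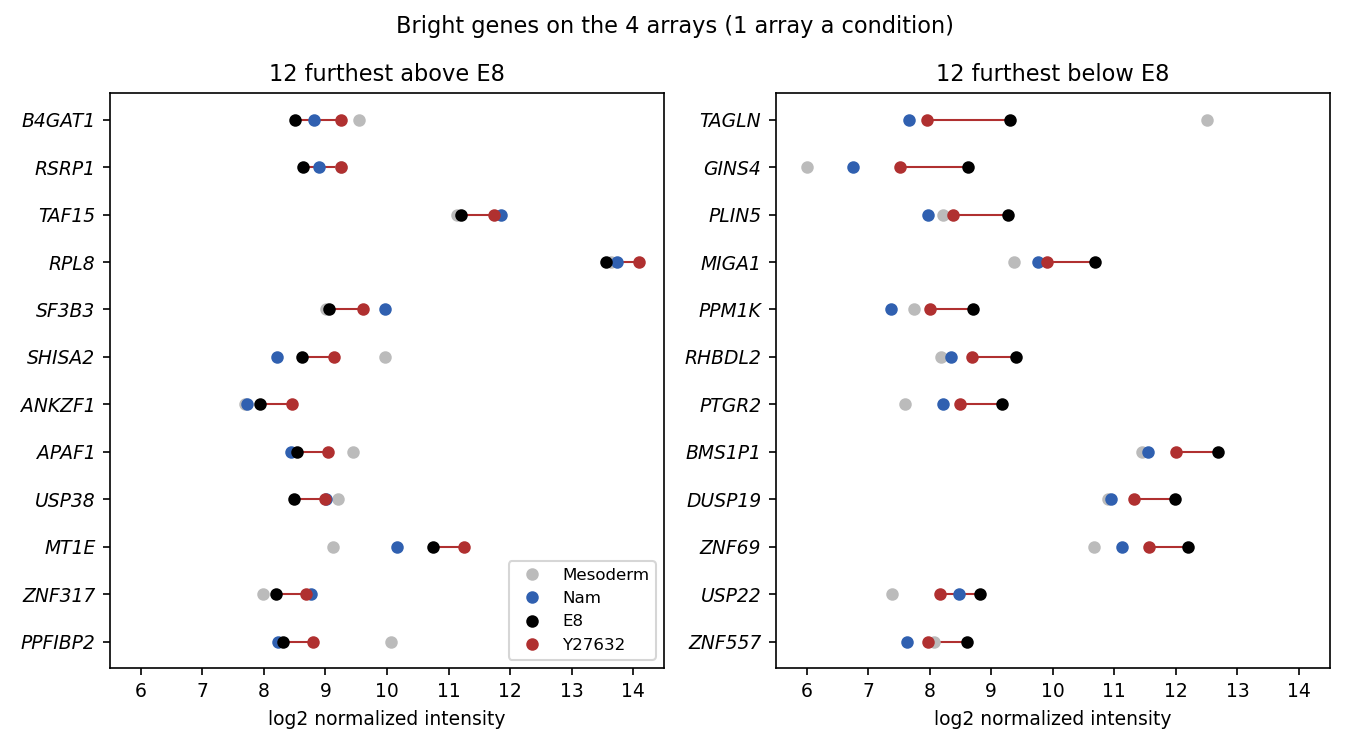
Levels (log2 normalized intensity) on the 4 arrays for the 12 bright genes furthest above E8 (left) and the 12 furthest below (right) on Y27632; each dot is the brightest probe on 1 array, and red lines join E8 to Y27632. TAGLN spans 7.67 to 12.51 over the arrays, with Mesoderm the highest, and GINS4 spans 6.01 to 8.63, with E8 the highest.

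Other probes of the same genes bore out few of these differences. Of the 41 bright genes at least 1.3-fold higher, 16 had another probe detected on both arrays. The median difference over those 16 was 0.46 by the brightest probe and 0.05 by the others, with 8 in the same direction and 1 past 1.3-fold. Of the 103 lower, 38 had another probe, with medians of -0.46 and -0.03, 21 in the same direction and 4 past 1.3-fold. The probe shown was selected for its level and the gene for its difference, so the second probe is the value not used in the selection.

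**Figure D4:**
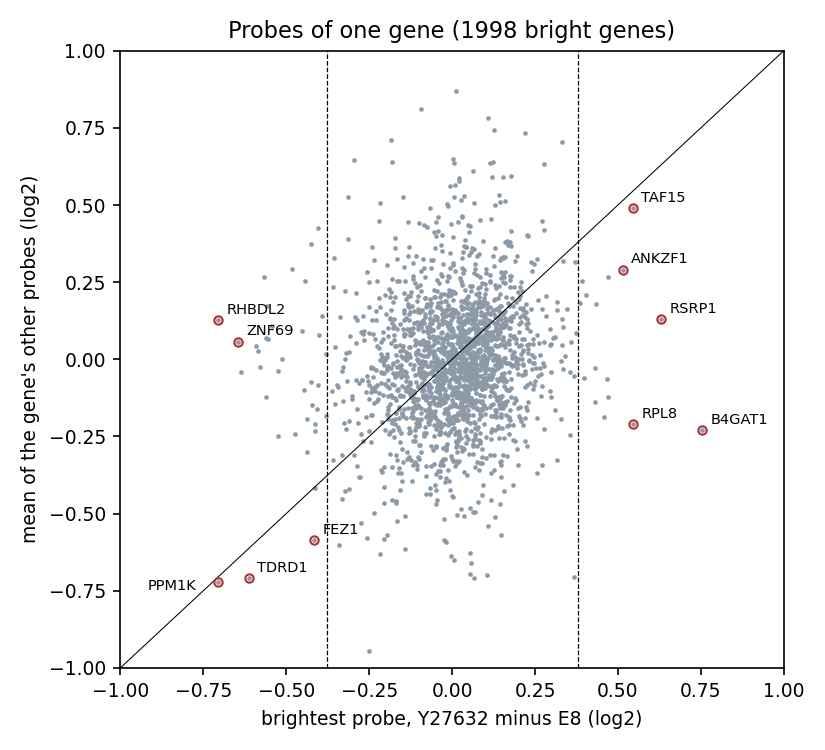
Difference (Y27632 minus E8, log2) by the brightest probe (horizontal) and by the mean of the gene's other probes detected on both arrays (vertical) for 1998 bright genes; dashed lines mark 1.3-fold and the diagonal equal values. PPM1K, TDRD1, FEZ1 and TAF15 lie near the diagonal, while B4GAT1, RPL8, RHBDL2 and ZNF69 have other probes on the other side of 0.

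Among the 1011 genes with agreeing probes and a mean level of at least 7, 3 (0.297%) were at least 1.3-fold higher by the mean over probes and 14 (1.38%) lower. At 1.5-fold, 0 were higher and 3 (0.297%) lower. Those 3 were ALKAL2, PPM1K and TDRD1. ALKAL2, a ligand of the receptor kinases ALK and LTK, read 8.04 on E8, 7.32 on Y27632, 7.0 on Nam and 6.21 on Mesoderm by one probe, and 7.90, 7.19, 6.65 and 6.07 by the other (mean -0.72, SD 0.01). PPM1K, a mitochondrial phosphatase that activates branched-chain amino acid breakdown, read 8.71, 8.0, 7.37 and 7.74 by one and 6.66, 5.94, 6.18 and 8.08 by the other (mean -0.71, SD 0.01). A further PPM1K probe, not detected on E8 or on Y27632, differed the other way by 0.60. TDRD1, a Tudor protein of the germline piRNA pathway in mice, read 8.86, 8.25, 7.79 and 8.0 by one and 8.88, 8.17, 7.64 and 8.07 by the other (mean -0.66, SD 0.07). For ALKAL2 and TDRD1, E8 was the highest of the 4 arrays by both probes.

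FEZ1, an adaptor of kinesin transport, had 4 probes, all lower on Y27632, with a mean of -0.54 and an SD of 0.13. GDPD1 differed by -0.50, WDHD1, a DNA replication factor, by -0.47 over 3 probes, STOM, a membrane scaffold protein, by -0.47 and IDO1, which breaks down tryptophan, by -0.44. The higher genes with agreeing probes differed less. After TAF15 came ANKZF1 (mean 0.40, SD 0.16), LOC730101 (0.39), MTSS1, which links the membrane to actin (0.37), CTNNBIP1, an inhibitor of beta-catenin (0.36), PARG, which removes poly(ADP-ribose) (0.36), the transporter ABCC4 (0.35) and SIPA1, a Rap GTPase-activating protein (0.35).

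At any level, 3 genes detected on both arrays were at least 2-fold higher on Y27632 and 4 were at least 2-fold lower. The 4 lower ones were the bright genes TAGLN and GINS4 and, below the bright range, JDP2 and SERPINB9. The 3 higher ones, CD55, NAB2 and ZNF121, all lie below it. The 5 dim genes rest on 1 detected probe each and were named after their values were seen. CD55, which shields cells from complement, read 5.92 on E8, 7.25 on Y27632, 6.81 on Nam and 8.42 on Mesoderm (1.33, 2.51-fold), and lay between 0.60 and 1.34 over the alternative settings. NAB2, a corepressor of EGR factors, read 6.41, 7.47, 6.56 and 7.45 in the same order. ZNF121 read 7.09, 8.22, 8.43 and 7.82, and E8 was the lowest array for each of these 3 genes. JDP2, a repressor of AP-1 sites, read 6.98 on E8 and 5.90 on Y27632, and SERPINB9, an inhibitor of granzyme B, 6.86 and 5.86.

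For genes detected on 1 array only, the fold is given as a minimum that holds for the main settings only. The undetected value was replaced by the lowest value detected on its array (5.59 for E8, 5.82 for Y27632) unless it was higher than that. KDM4D, a histone demethylase, was at least 2.20-fold higher on Y27632 (5.55 on E8, 6.72 on Y27632). CLDN4, a claudin, was at least 1.90-fold higher, CTAGE11P at least 1.72-fold, PGF, placental growth factor, at least 1.69-fold, EHD2, which sits at caveolae, at least 1.68-fold and TBX21 at least 1.65-fold. SNAP29, a protein of vesicle fusion, was at least 1.88-fold lower on Y27632 (6.73 on E8, 5.81 on Y27632). PPIB, a cyclophilin of the endoplasmic reticulum, was at least 1.79-fold lower, VAPB at least 1.74-fold, MSX1, a homeobox gene, and TRANK1 each at least 1.63-fold and RPGR, a protein of the cilium, at least 1.61-fold. None of these genes had another probe detected on both arrays. They were chosen for the size of this minimum, and the SD of the difference was 0.47 at levels from 5 to 6. KDM4D and TBX21 on E8 and SNAP29 on Y27632 narrowly missed detection (p of 0.0104). Over the alternative settings the difference lay between 0.44 and 1.20 for KDM4D, 0.42 and 1.25 for CLDN4, and -1.08 and -0.37 for SNAP29.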

How the data were processed

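Total RNA was labelled with biotin and hybridised to 4 Illumina Expression BeadChip arrays, 1 per condition. The deposited table gives for each of 47296 probes a signal, an intensity not yet normalized (per the file headers), and a detection p-value. A second deposited table holds log2 values normalized by the authors. Its steps and the scanner's software are not given in the sources, and the series matrix was identical to it (0 cells differed). The members and gene lists were chosen with earlier results of these data known.

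From the signals, limma 3.58.1 (neqc, R 4.3.3) was run with an offset of 16: the background was estimated from the detection p-values, all 4 arrays were quantile-normalized together, and log2 was taken. The offset understates the differences of dim genes. Of the probes, 30105 had 1 gene symbol in the platform annotation, 8 several and 17183 none that could be used. A gene was read from the probe brightest on average over the 4 arrays, among its detected probes (p at most 0.01). The genes named were the 12 highest and 12 lowest bright genes, 8 each way with agreeing probes, 6 each way by bound, up to 3 per list plus the largest opposite one, and a fixed set of pluripotency, kinase and actin genes. Some named genes and lists are not reported here. Others are said to have been named after their values were seen. The steps were tested on simulated data. The alternatives were median scaling, quantile over the 2 arrays compared, no background correction, an offset of 50, the authors' table, 3 other detection filters, the mean over probes, and a bright level of 9. With 1 array per condition, their number limits the precision.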

Additional observations from a re-analysis of the deposited data

Results flagged for a closer look

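Among probes without a gene name, which the gene comparison does not use, 1505 were bright on E8 and Y27632. Of these, 1 was at least 1.5-fold higher on Y27632 and 7 were lower, against 0.0314% and 0.33% of the bright genes with a name. The higher one, ILMN_3235420, differed by 0.68, reading 8.18 on E8, 8.86 on Y27632, 8.27 on Nam and 8.74 on Mesoderm. It was singled out because it lay above the E8 array in data outside the main measurement. The largest of the 7 lower ones read 10.16 on E8, 9.29 on Y27632, 8.95 on Nam and 8.88 on Mesoderm.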

How the results depend on the processing

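No paired analysis was possible because each condition had 1 array. No array could be left out of a group for the same reason. For the 214 named genes, 1905 values were recomputed under 10 settings. Of these genes, 19 changed sign, 12 with median scaling and 9 by the mean over probes, and 0 of the 19 were at least 1.3-fold apart (the largest, ILK, at 0.32). By size, 147 values moved by more than the spread set for them. Of the 144 bright genes at least 1.3-fold apart, 113 stayed so with median scaling, 82 without background correction, 121 with an offset of 50, 135 in the authors' table and 97 by the mean over probes.

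The counts depended on the setting. At 1.5-fold they were 178 higher and 227 lower, 101 and 464 with median scaling, 4 and 9 without background correction, 31 and 38 with an offset of 50, 72 and 111 in the authors' table, 76 and 78 for genes detected on both arrays, 384 and 354 with detection p at most 0.05, and 420 and 384 with no filter. At 2-fold, median scaling gave 49 lower, no background correction 0 and 1, the offset of 50 0 and 1, the table of the authors gave 10 and 8, and genes detected on both arrays 3 and 4. The looser detection gave 49 higher, and no filter 46. For bright genes at 1.3-fold, median scaling gave 13 and 259, no background correction 16 and 66, and a bright level of 9 gave 14 and 63. The cause of these shifts was not tested. The median of the serum response factor targets was -0.054 for genes detected on both arrays, and that of the YAP and TEAD targets was -0.11 with median scaling and -0.11 by the mean over probes. The median of the mesoderm markers, 4 genes, turned from -0.44 to 0.10 for genes detected on both arrays. That of the endoderm markers, 2 genes, turned from 0.48 to -0.084 there and to -0.087 with no filter.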
